A study of Mus musculus with 10 samples.

Results

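The 10 genes described here encode enzymes that build, desaturate and lengthen fatty acids, together with a transcription factor and a cofactor. The factor drives many genes of the pathway, and the cofactor promotes the activity of acetyl-CoA carboxylase. The 10 genes were chosen by symbol: Srebf1, Fasn, Acaca, Mid1ip1, Scd1, Scd2, Fads1, Fads2, Elovl5 and Elovl6. Each symbol was matched to its Ensembl identifier, and all 10 were found among the 45318 rows of the deposited expression table. 9 of them passed the filter on low values and were tested among 13171 genes. Scd1 did not pass and is described by its values only.

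The cells were bone marrow derived macrophages, which are primary macrophages grown from marrow, of mice of the C57BL/6 strain, and polyadenylated RNA was sequenced with a strand-preserving kit. There were 5 groups of 2 libraries. The Poly(I:C) group held cells labelled Tlr4 -/- (KO) that had been pre-treated with Poly(I:C), which is a synthetic RNA of double strands. The control groups held KO cells and wild-type (WT) cells collected after 6 h in a medium that held 5% serum (fetal bovine) and 2% albumin (bovine serum). The untreated groups held KO cells and WT cells. TLR4 is the cell-surface receptor that senses lipopolysaccharide of bacteria, and the study concerns what its deficiency does to inflammatory signals and lipid metabolism in macrophages. The sources used here do not give the duration of the Poly(I:C) pre-treatment, its serum and albumin, the medium of untreated cells, or the age of the mice. Poly(I:C) in WT cells was not analysed here, so a response to Poly(I:C) can be set against KO groups only. The labels do not say whether the 2 libraries of a group stem from different cultures or mice. The p-values therefore reflect the spread between libraries, and that spread may be technical only.

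As background, fatty acid synthesis starts in the cytosol, where acetyl-CoA carboxylase makes malonyl-CoA and fatty acid synthase joins malonyl units into palmitate. Elongases of the endoplasmic reticulum then lengthen the chain, and desaturases insert double bonds to make monounsaturated and polyunsaturated fatty acids. SREBP-1, the product of Srebf1, is made as a membrane-bound precursor. It is escorted by SCAP, retained by INSIG proteins when sterols are abundant, and cleaved in the Golgi to free a factor that drives many genes of the pathway. In macrophages the products supply membrane phospholipids, and arachidonic acid released from these is the precursor of prostaglandins and leukotrienes.

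Deposited library totals ranged from 25.2 to 51.7 M units, behind which lay an estimated 18.3 to 56.5 M reads. Values are given as CPM, the deposited units of a gene relative to its library's total after TMM scaling, and the 2 libraries of a group correlated at 0.9918 to 0.9939 across genes. A gene was called, and is said below to have risen or fallen, at an adjusted p under 0.05 from limma on log2(CPM + 0.1), with adjustment over all 13171 genes. All 8 macrophage markers were at 1 CPM or more in every library, and they summed to 23500 to 28200 CPM. The 7 adipocyte markers summed to at most 0.033 CPM in any library, and Plin1, Cfd and Pck1 were at 0 in all groups. The 10 neutrophil markers summed to 101 to 109 CPM in KO Poly(I:C), 16.4 to 21 in KO control, 84.9 to 113 in WT control, 27.3 to 30.7 in KO untreated and 20.7 to 37.5 CPM in WT untreated cells. At 1 CPM or more in both libraries were 7 of them in KO Poly(I:C) and 7 in WT control cells, against 3 to 5 in the other groups, and only in KO control cells was one of them, Ly6g, at 0 in both libraries. The most abundant neutrophil marker was S100a8 in KO Poly(I:C) (43.1 CPM) and WT control cells (44.0 CPM). In the other groups it was S100a9, at 7.06 to 11.6 CPM. The 8 stromal markers summed to 41.3 to 43.2 CPM in KO Poly(I:C), 29 to 33.3 in KO control, 36.5 to 47.1 in WT control, 30 to 32.7 in KO untreated and 28.4 to 38 CPM in WT untreated cells, with 5 at 1 CPM or more in KO Poly(I:C) and WT control cells against 2 or 3 elsewhere. Of 4 mast cell markers only Kit was read, at 1.06 CPM in KO Poly(I:C), 0.114 in KO control, 0.765 in WT control, 0.049 in KO untreated and 0.115 CPM in WT untreated cells. Cpa3, Fcer1a and Mcpt8 were at 0 in every group. The dendritic and B cell markers summed to at most 0.999 and 0.227 CPM in any library, and those of T and NK cells to 0. Of 5 erythroid and platelet markers Pf4 was the most abundant. It averaged 368 CPM in KO Poly(I:C), 209 in KO control and 310 in WT control cells. In KO untreated and WT untreated cells it averaged 337 and 344 CPM. Pecam1, the most abundant stromal marker, averaged 27.5 CPM in KO Poly(I:C), 25.5 in KO control and 23.1 in WT control cells. It averaged 27.2 in KO untreated and 27.8 CPM in WT untreated cells, so it was lowest in WT control cells, unlike the sum. Acaca, Mid1ip1, Scd2, Fads1, Elovl5 and Elovl6 below were lowest in KO Poly(I:C) and WT control cells. The neutrophil sums, the stromal sums and Kit were higher in these 2 groups, although the stromal sums of WT control and WT untreated cells overlapped. The part of these markers in the results of those genes was not tested. Tlr4 transcripts were not lost in cells labelled KO: Tlr4 averaged 44.6 ± 0.428 CPM in KO untreated and 64.5 ± 6.13 CPM in WT untreated cells (SD, n = 2), a log2 difference of −0.53 (limma adjusted p = 0.351). A value per gene does not show which part of Tlr4 was read, and the genotypes are given below as labelled.

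Per kilobase of annotated exon, the 10 genes covered a wide range of levels. In untreated cells the order was the same for both labels, with Elovl5 at the top (15.5 CPM per kb in KO and 14.9 in WT), followed by Scd2, Mid1ip1, Fads1, Srebf1, Fasn, Acaca, Elovl6, Fads2 and Scd1. The libraries of Elovl5, Scd2 and Mid1ip1 overlapped between neighbours in WT untreated cells, and those of Scd2, Mid1ip1 and Fads1 did in KO untreated cells, so those positions did not differ beyond their spread. In KO control cells Scd2 stood first at 21.6 CPM per kb, apart from all others. In KO Poly(I:C) cells Srebf1 stood first at 8.82 CPM per kb, with Scd2 in the fifth place at 2.47. Srebf1 was also first in WT control cells, at 10.4 CPM per kb. Elovl6 and Fads2 stayed under 1 CPM per kb in every group. They were followed by Scd1, and the libraries of Elovl6 and Fads2 overlapped in KO Poly(I:C), KO control and WT control cells.

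**Figure D1:**
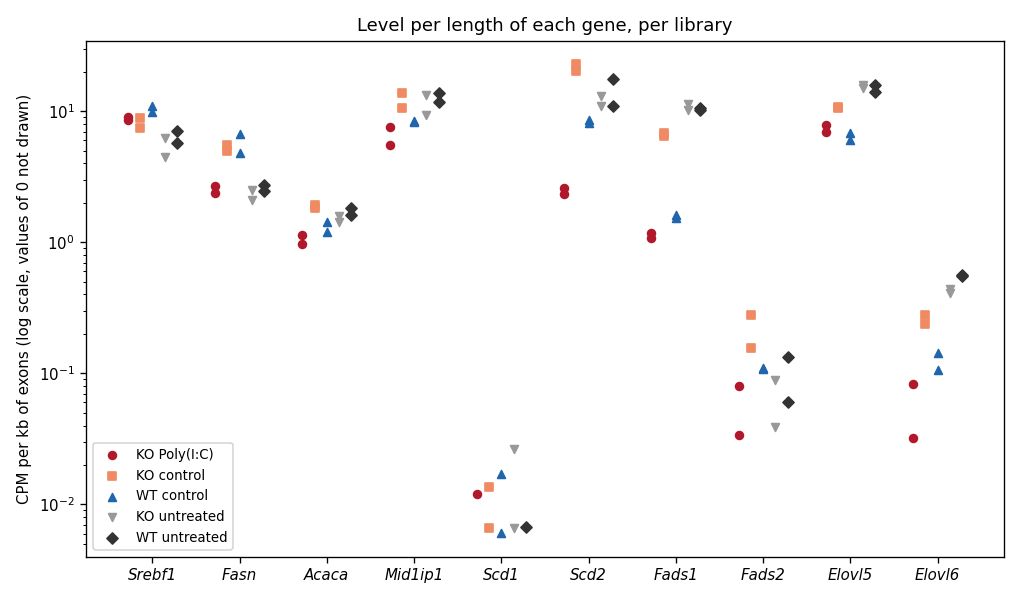
CPM per kb of exons (vertical, log scale) of each of the 10 genes (horizontal), with 1 point per library and a colour and shape per group. Scd2 spans 2.35 to 22.9 CPM per kb over the libraries, while Acaca stays between 0.97 and 1.93, and values of 0 for Scd1 are not drawn.

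**Figure D2:**
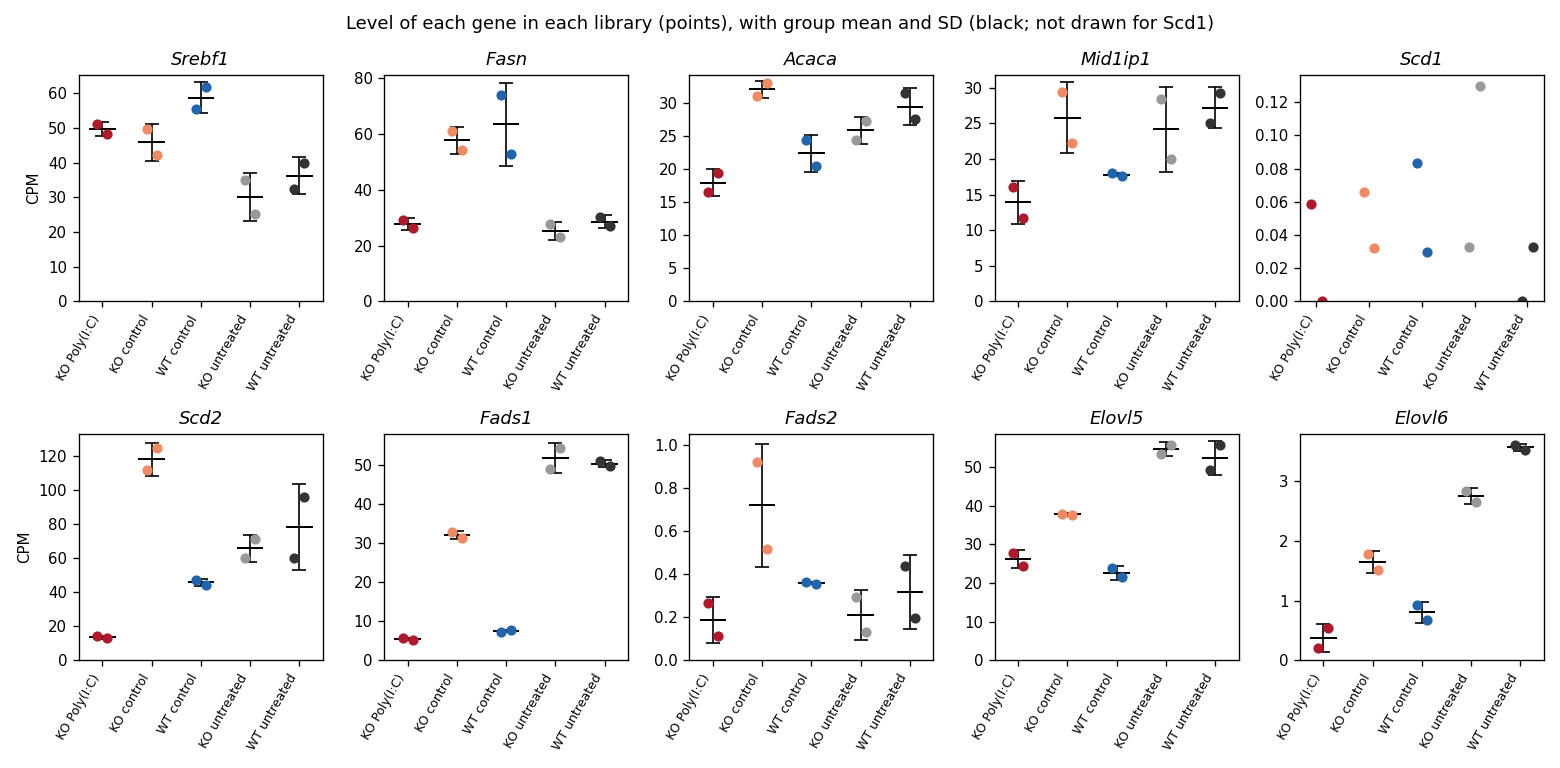
CPM (vertical, each panel with its own scale from 0) of each gene in the 5 groups, with points for the 2 libraries and black lines for the group mean and SD (n = 2). Fasn is highest in both control groups, Fads1, Elovl5 and Elovl6 are highest in both untreated groups, and Scd2 is highest in KO control cells.

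Promoters were examined for the 3 genes of those with a tabulated promoter that were called in the same direction in WT control cells and in KO Poly(I:C) cells, each against untreated cells of the same label, with the largest changes. Elovl6 and Elovl5 fell in both comparisons and Srebf1 rose in both under the TMM scaling, so the windows are shown to set promoters of falling genes beside that of a rising gene. Each window runs from 250 bases before to 50 after a RefSeq transcript start (GRCm38.p6). Both strands were searched for the letters TCACNCCAC of a sterol response element, the site that SREBPs bind, for CCAAT (the CCAAT box), for GGGCGG (the GC box) and for CACGTG (the E-box). Capitals mark matches, and a match on the opposite strand appears as its reverse complement, such as ATTGG for CCAAT.
Elovl6, chr3:129532136-129532435, plus strand: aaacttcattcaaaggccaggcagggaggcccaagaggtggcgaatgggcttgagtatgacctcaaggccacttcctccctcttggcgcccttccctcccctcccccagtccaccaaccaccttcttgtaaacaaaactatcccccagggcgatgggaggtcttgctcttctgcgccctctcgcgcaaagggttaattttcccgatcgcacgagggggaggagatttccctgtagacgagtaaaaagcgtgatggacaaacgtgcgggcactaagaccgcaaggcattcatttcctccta
Elovl5, chr9:77917115-77917414, plus strand: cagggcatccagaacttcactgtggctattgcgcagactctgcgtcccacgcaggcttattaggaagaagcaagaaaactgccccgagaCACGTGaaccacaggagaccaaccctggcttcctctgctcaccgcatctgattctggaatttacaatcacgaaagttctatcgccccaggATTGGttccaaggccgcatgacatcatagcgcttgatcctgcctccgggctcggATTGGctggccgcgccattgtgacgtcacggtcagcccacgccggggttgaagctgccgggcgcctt
Srebf1, chr11:60222532-60222831, minus strand: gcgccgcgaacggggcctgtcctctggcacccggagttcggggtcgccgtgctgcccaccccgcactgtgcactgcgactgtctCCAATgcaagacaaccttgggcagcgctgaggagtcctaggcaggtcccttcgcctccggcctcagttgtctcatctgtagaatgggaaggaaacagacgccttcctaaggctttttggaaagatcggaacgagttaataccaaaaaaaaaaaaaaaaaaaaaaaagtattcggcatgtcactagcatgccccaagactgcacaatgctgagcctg

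The Elovl5 window held 2 matches to CCAAT, starting at −71 and −17 relative to the transcript start, and a match to CACGTG starting at −161. The Srebf1 window, the most upstream of 3 in the table, held 1 match to CCAAT starting at −166, and the Elovl6 window held no match to any of the 4 motifs. The window of Fasn, not printed, held 3 matches to CCAAT, and those of Mid1ip1 and Fads2 held 3 matches and 1 match to GGGCGG. None of the 9 windows of these 7 genes, Acaca included, held the letters TCACNCCAC. The transcript start of the Acaca window lay 65766 bases from the gene start in GENCODE M21, and that of Mid1ip1 lay 2352 bases from it. Those of the other Srebf1 windows lay 1954 and 12110 bases from it. These windows thus do not show the sequence at that gene start. Over all 32851 promoter windows of 300 bases, 1.24% held TCACNCCAC, 37.4% held CCAAT, 35.7% held GGGCGG and 7.15% held CACGTG. These matches describe letters only, and Scd1, Scd2 and Fads1 had no entry in the table.

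Srebf1 (ENSMUSG00000020538, chromosome 11, 60199089 to 60222581, minus strand, GENCODE M21 on GRCm38) encodes SREBP-1, and a value per gene does not separate its 1a and 1c forms. It had 51.1 and 48.3 CPM in KO Poly(I:C), 49.6 and 42.1 in KO control, 55.5 and 61.9 in WT control, 35.0 and 25.2 in KO untreated and 32.5 and 40.0 CPM in WT untreated cells. Every library of a control or Poly(I:C) group lay above every untreated library. Srebf1 rose in WT control against WT untreated cells by 0.70 log2 (SE 0.16, 1.63-fold, limma adjusted p = 0.00288) and in KO control against KO untreated cells by 0.62 (SE 0.16, adjusted p = 0.0216). The call in KO cells was lost with only the groups compared in the fit (0.62, limma adjusted p = 0.0849). It was also lost without KO control replicate 1 (0.50), KO control replicate 2 (0.74) or KO untreated replicate 2 (0.38). Srebf1 rose in KO Poly(I:C) against KO untreated cells by 0.74 (SE 0.16, adjusted p = 0.00172). In bulk samples such as these, a change in the cells that hold a transcript and a change in its amount per cell cannot be told apart. The size in these comparisons depended on the scaling: with scaling by library totals alone, the difference was 0.17 in WT control cells (adjusted p = 0.34) and −0.03 in KO Poly(I:C) cells (adjusted p = 0.878). Under that scaling the median of all genes itself lay at −0.523 and −0.773 in those comparisons, so that Srebf1 stood above it in both. KO control minus WT control was −0.36 (95% interval −0.71 to −0.01, limma adjusted p = 0.0724). This difference was called in some other settings, among them the authors' rlog values (−0.39) and a fit of only the groups compared (−0.36). It was 0.12 with scaling by totals alone. KO Poly(I:C) minus KO control was 0.12 (−0.23 to 0.47, adjusted p = 0.512), which turned to −0.61 with scaling by totals alone.

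Fasn (ENSMUSG00000025153, chromosome 11, 120805846 to 120824547, minus strand) encodes fatty acid synthase, the enzyme that makes palmitate. It had 29.3 and 26.1 CPM in KO Poly(I:C), 60.9 and 54.2 in KO control, 74.0 and 52.9 in WT control, 27.6 and 23.0 in KO untreated and 30.1 and 27.0 CPM in WT untreated cells. The 4 control libraries lay above the other 6, among which the groups overlapped. Fasn rose 2.19-fold in WT control against WT untreated cells (1.13 log2, SE 0.16, limma adjusted p = 0.000115) and 2.27-fold in KO control against KO untreated cells (1.19, SE 0.16, adjusted p = 0.000867). The difference between these 2 responses was 0.05 log2 (95% interval −0.44 to 0.55, adjusted p = 0.859). Fasn fell 2.08-fold in KO Poly(I:C) cells against KO control (−1.05 log2, SE 0.16, limma adjusted p = 0.000168). KO Poly(I:C) minus KO untreated was 0.13 (−0.22 to 0.48, adjusted p = 0.467), and −0.64 with scaling by totals alone (adjusted p = 0.00585), where the median of all genes was −0.773.

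Acaca (ENSMUSG00000020532, chromosome 11, 84129672 to 84401651, plus strand) encodes acetyl-CoA carboxylase 1, which makes the malonyl-CoA that Fasn and the elongases use. Acaca had 16.6 and 19.5 CPM in KO Poly(I:C), 31.1 and 33.0 in KO control, 24.4 and 20.5 in WT control, 24.5 and 27.3 in KO untreated and 31.5 and 27.6 CPM in WT untreated cells. The KO Poly(I:C) libraries were the lowest of all, and the WT control libraries lay below both WT untreated ones. Acaca fell in WT control against WT untreated cells by 0.40 log2 (SE 0.12, limma adjusted p = 0.0162). This call was lost with the deposited scaling (−0.24, adjusted p = 0.183), under which the median of all genes was 0.145. It was also lost without WT untreated replicate 1 (−0.30) and without WT control replicate 2 (−0.27). In KO cells the same difference was 0.31 (95% interval 0.03 to 0.58, adjusted p = 0.111). Acaca makes the substrate of Fasn, and the balance between their transcripts differed between groups. Within each library, the ratio of Fasn to Acaca was 1.77 and 1.34 in KO Poly(I:C), 1.96 and 1.64 in KO control, 3.03 and 2.58 in WT control, 1.13 and 0.841 in KO untreated and 0.957 and 0.977 in WT untreated cells.

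Mid1ip1 (ENSMUSG00000008035, chromosome X, 10715013 to 10719690, plus strand) encodes a small protein that promotes the polymerisation and activity of acetyl-CoA carboxylase. It had 16.0 and 11.7 CPM in KO Poly(I:C), 29.4 and 22.3 in KO control, 18.0 and 17.6 in WT control, 28.4 and 20.0 in KO untreated and 25.1 and 29.2 CPM in WT untreated cells. Mid1ip1 was lowest in the same 2 groups as Acaca. It fell in WT control against WT untreated cells by 0.60 log2 (SE 0.20, limma adjusted p = 0.0219) and in KO Poly(I:C) against KO control cells by 0.90 (SE 0.20, adjusted p = 0.0025). The call in WT control cells was lost with the deposited scaling (−0.44, adjusted p = 0.0521), under which the median of all genes was 0.145. It was also lost without WT untreated replicate 2 or either WT control library. Over the 10 libraries the centred log2 profiles of Acaca and Mid1ip1 were the closest of any pair among the 9 tested genes, with a root mean square difference of 0.284.

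Scd1 and Scd2 encode stearoyl-CoA desaturases, which make oleate and palmitoleate from saturated fatty acids, and they lie close together on chromosome 19. Scd1 (ENSMUSG00000037071, 44394455 to 44407879, minus strand), the main form in mouse liver and fat, was all but unread, with deposited values of 0 to 4 and an estimated 0 to 3 reads in any library. At that depth no difference in Scd1 between groups was detectable. Scd2 (ENSMUSG00000025203, 44293674 to 44306864, plus strand) had 241 to 4245 estimated reads per library, and reads that match both genes could be assigned to either by the authors' counting. Scd2 had 14.1 and 12.8 CPM in KO Poly(I:C), 112.0 and 125.0 in KO control, 47.1 and 44.3 in WT control, 60.3 and 71.5 in KO untreated and 60.2 and 96.1 CPM in WT untreated cells. KO control libraries were the highest and KO Poly(I:C) libraries the lowest, and the untreated groups overlapped.

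Scd2 moved in opposite directions with the control medium in cells of the 2 labels. It rose in KO control against KO untreated cells by 0.85 log2 (SE 0.18, 1.80-fold, limma adjusted p = 0.0102), and fell in WT control against WT untreated cells by 0.74 (SE 0.18, 1.66-fold, adjusted p = 0.00497). The difference between the responses was 1.58 (SE 0.26, limma adjusted p = 0.000755). The rise in KO cells was not called without KO untreated replicate 1 (0.72, adjusted p = 0.067) or without KO control replicate 2 (0.77, adjusted p = 0.0822). Against KO control cells, Scd2 fell 8.72-fold in KO Poly(I:C) cells (−3.12 log2, SE 0.18, limma adjusted p = 1.84e-07), the largest difference among the 9 tested genes in that comparison. Against KO untreated cells it fell by 2.28 (SE 0.18, adjusted p = 1.55e-06).

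Fads1 (ENSMUSG00000010663, chromosome 19, 10182888 to 10196877, plus strand) encodes the delta-5 desaturase, which makes arachidonic acid from dihomo-gamma-linolenic acid. It had 5.64 and 5.22 CPM in KO Poly(I:C), 32.7 and 31.3 in KO control, 7.33 and 7.73 in WT control, 49 and 54.4 in KO untreated and 50.9 and 49.7 CPM in WT untreated cells. No 2 groups overlapped except the untreated ones, and Fads1 had the smallest SE of the tested genes. Fads1 fell 6.60-fold in WT control against WT untreated cells (−2.72 log2, SE 0.09, limma adjusted p = 9.57e-09) and 1.61-fold in KO control against KO untreated cells (−0.69, SE 0.09, adjusted p = 0.000998). The difference between the responses was 2.03 (SE 0.13, limma adjusted p = 1.95e-06). It fell 5.81-fold in KO Poly(I:C) against KO control cells (−2.54, SE 0.09, adjusted p = 7.73e-09) and 9.36-fold against KO untreated cells (−3.23, SE 0.09, adjusted p = 1.5e-09). All of these calls held in each of the 18 other settings tried.

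Fads2 (ENSMUSG00000024665, chromosome 19, 10062765 to 10101746, minus strand) encodes the delta-6 desaturase, which acts before Fads1 on linoleic and alpha-linolenic acid. It was near the limit of detection, with an estimated 2 to 34 reads per library. Fads2 had 0.264 and 0.112 CPM in KO Poly(I:C), 0.923 and 0.518 in KO control, 0.362 and 0.355 in WT control, 0.294 and 0.13 in KO untreated and 0.439 and 0.198 CPM in WT untreated cells. The KO control libraries were the highest, and the other 8 libraries lay between 0.112 and 0.439 CPM. Fads2 rose in KO control against KO untreated cells by 1.40 log2 (SE 0.44, limma adjusted p = 0.0496), a call lost in 11 of the 18 other settings. These included every one that left out a KO control or KO untreated library, where the difference ranged from 1.01 to 1.79. It fell in KO Poly(I:C) against KO control cells by 1.52 (SE 0.44, adjusted p = 0.0109), a call lost without KO control replicate 1 (−1.15) or KO Poly(I:C) replicate 2 (−1.13). With a pseudocount of 1 these differences were 0.50 and −0.53.

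Elovl5 (ENSMUSG00000032349, chromosome 9, 77917364 to 77984519, plus strand) encodes the elongase that lengthens polyunsaturated fatty acids between the Fads2 and Fads1 steps. It had 27.7 and 24.4 CPM in KO Poly(I:C), 37.9 and 37.5 in KO control, 23.9 and 21.4 in WT control, 53.3 and 55.8 in KO untreated and 49.3 and 55.6 CPM in WT untreated cells. The untreated groups overlapped and lay above all others, and KO control lay between them and the other 2 groups. Elovl5 fell in WT control against WT untreated cells by 1.21 log2 (SE 0.10, 2.31-fold, limma adjusted p = 2.4e-06) and in KO control against KO untreated cells by 0.53 (SE 0.10, 1.45-fold, adjusted p = 0.00458). The difference between the responses was 0.67 (SE 0.14, adjusted p = 0.0028). It fell further in KO Poly(I:C) cells, by 0.53 against KO control (adjusted p = 0.000692) and by 1.06 against KO untreated cells (adjusted p = 4.12e-06).

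Elovl6 (ENSMUSG00000041220, chromosome 3, 129532355 to 129638495, plus strand) encodes the elongase that turns palmitate into stearate. It had 0.206 and 0.533 CPM in KO Poly(I:C), 1.78 and 1.52 in KO control, 0.92 and 0.681 in WT control, 2.84 and 2.66 in KO untreated and 3.61 and 3.53 CPM in WT untreated cells, from an estimated 6 to 156 reads per library. No 2 of the 5 groups overlapped. Elovl6 fell 4.11-fold in WT control against WT untreated cells (−2.04 log2, SE 0.31, limma adjusted p = 0.000243), and KO control minus KO untreated was −0.71 (95% interval −1.40 to −0.01, adjusted p = 0.148). The difference between the responses was 1.33 (SE 0.44, limma adjusted p = 0.0323), a call lost in 9 of the 18 other settings with adjusted p of up to 0.102, among them those without either KO control, either KO untreated or either WT untreated library, and without WT control replicate 2 (1.14). In KO Poly(I:C) cells Elovl6 fell 3.97-fold against KO control (−1.99, SE 0.31, adjusted p = 0.000259) and 6.47-fold against KO untreated cells (−2.69, adjusted p = 2.5e-05). At so few reads the size depended on the pseudocount: with 1 in place of 0.1, the difference was −0.96 against KO control, −1.46 against KO untreated cells and −1.35 in WT control against WT untreated cells, each still called.

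**Figure D3:**
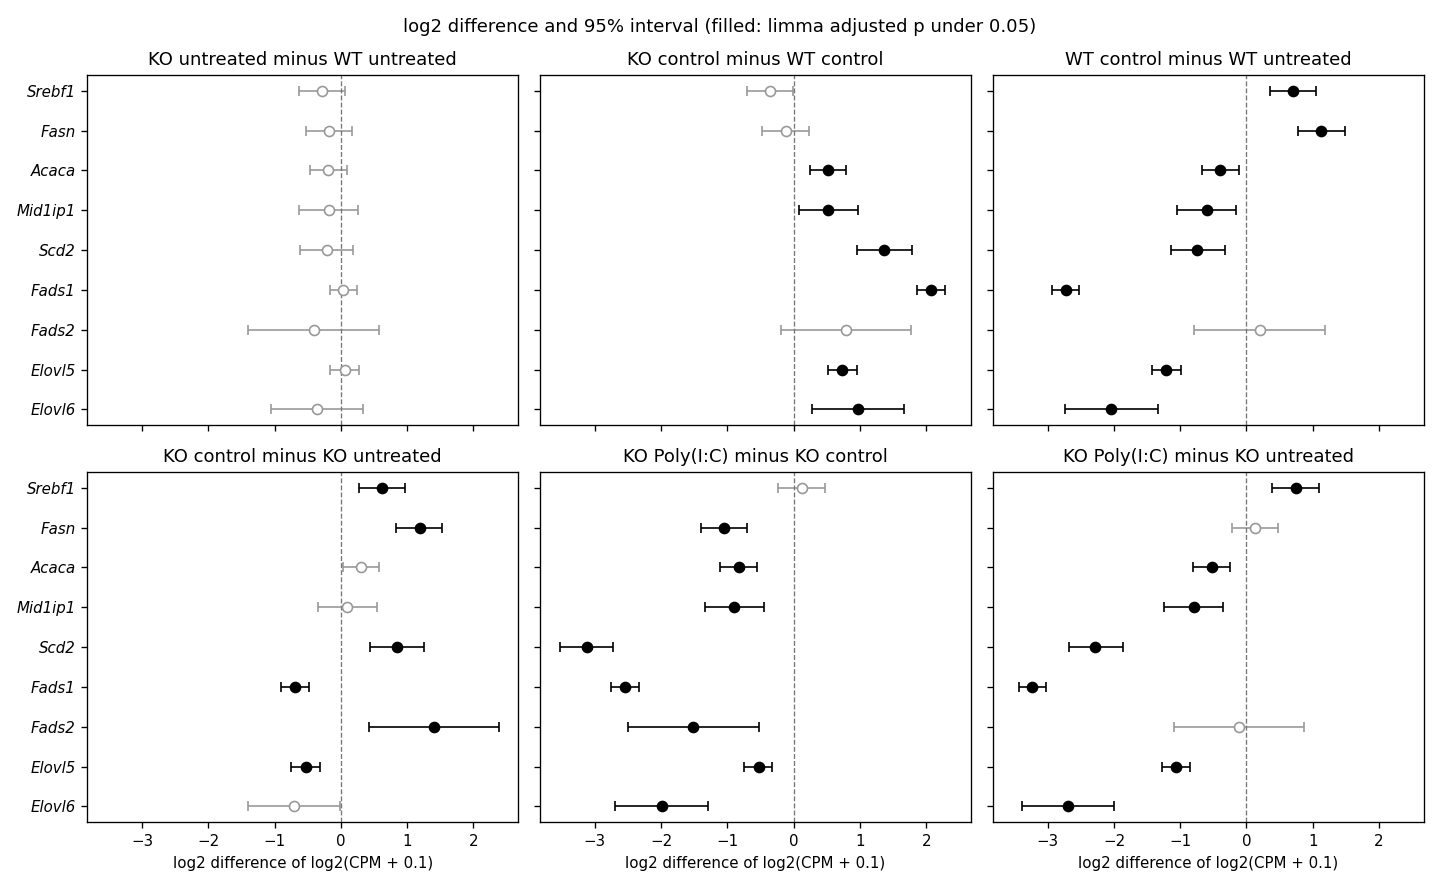
log2 difference on the log2(CPM + 0.1) scale (horizontal) of the 9 tested genes (vertical) in 6 comparisons, with 95% intervals and filled points for a limma adjusted p under 0.05. No point is filled between untreated KO and WT cells, and 8 of 9 are filled left of 0 between KO Poly(I:C) and KO control cells.

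In untreated cells no tested gene of the pathway was called different between the labels, and few genes were called at all. Between KO untreated and WT untreated cells, 0 of the 9 tested genes were called by limma, 0 had an unadjusted p under 0.05, and 0 were called with the authors' rlog values or any other setting. Of all genes 0.167% were called, 0.0835% higher and 0.0835% lower. The median difference of the 9 genes was −0.19 log2, against −0.01 over all genes, and the 95% intervals ran from −0.17 to 0.25 for Fads1, the narrowest, to −1.40 to 0.57 for Fads2, the widest.

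In WT cells the control medium went with a rise of the transcription factor and the synthase and a fall of Scd2, Fads1, Elovl5 and Elovl6. Against WT untreated cells, 2 of the 9 genes rose in WT control cells (Srebf1 and Fasn) and 6 fell (Acaca, Mid1ip1, Scd2, Fads1, Elovl5 and Elovl6). Fads2 did not pass, at 0.20 log2 (95% interval −0.79 to 1.18). Of all genes 65.9% were called, 32.8% higher and 33.1% lower. The median of the 9 was −0.60, against −0.01 over all genes. With scaling by library totals alone 1 rose and 6 fell, where the median of all genes was −0.523.

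In KO cells the same medium went with a rise of 4 genes and a fall of 2. Srebf1, Fasn, Scd2 and Fads2 rose in KO control against KO untreated cells, and Fads1 and Elovl5 fell, where 19.9% of all genes were called, 10.9% higher and 9.06% lower. The median of the 9 was 0.31, against 0.00 over all genes. Only Fasn, Fads1 and Elovl5 of these 6 were called in each of the 18 other settings. Fewer of the 9 were called without either KO control library or without either KO untreated library. Leaving out 1 library could also lower the number called among all genes, and whether these losses are particular to the 9 was not tested.

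The difference between the responses to the control medium, KO minus WT, was called for 5 of the 9 genes, all of them positive: Acaca (0.71 log2, SE 0.17, limma adjusted p = 0.00802), Scd2, Fads1, Elovl5 and Elovl6. Of all genes 45.9% were called, 22.3% in that direction and 23.6% in the other, and the median of the 9 was 0.71, against 0.04 over all genes. Mid1ip1 had 0.71 (SE 0.28, adjusted p = 0.0656) and was called in 4 of the 18 other settings. With the deposited scaling 3 genes passed, and Acaca (0.54, adjusted p = 0.0573) and Elovl6 (1.18, adjusted p = 0.0559) did not. Under that scaling the median of all genes was −0.121. Srebf1, with −0.08 (95% interval −0.58 to 0.42), and Fasn, with 0.05, were not called in any setting, and their sign depended on the setting.

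**Figure D4:**
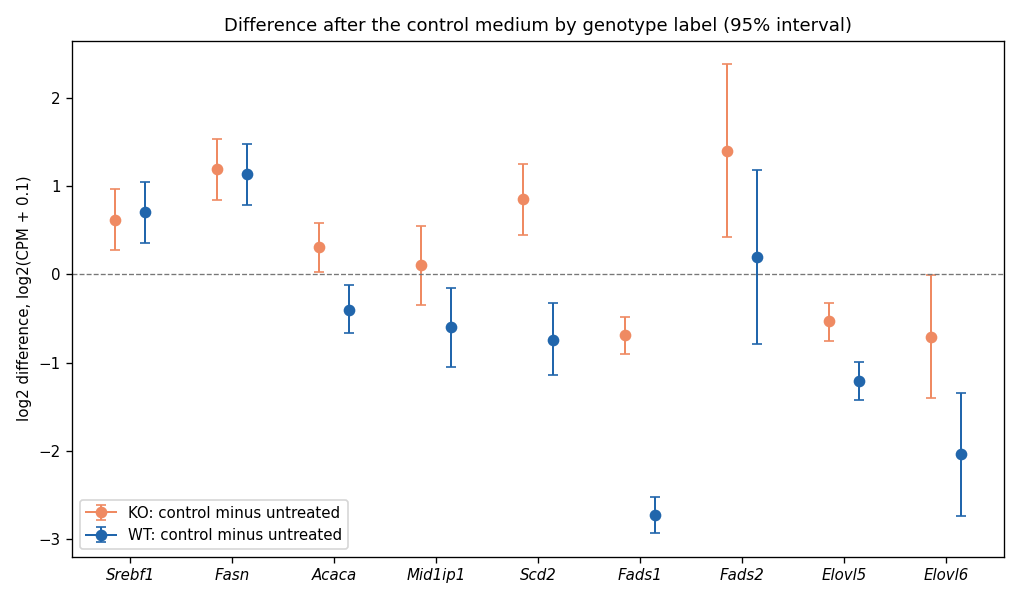
log2 difference between control and untreated cells (vertical, 95% interval) for each tested gene, in cells labelled KO (orange, left) and WT (blue, right). The points of Srebf1 and Fasn lie side by side above 0, those of Scd2 lie on opposite sides of 0, and those of Fads1, Elovl5 and Elovl6 lie below 0 in both, lower in WT.

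After the control medium, Fads1, Scd2, Elovl5 and Elovl6 were higher in KO cells than in WT cells. KO control cells exceeded WT control cells for 6 of the 9 genes, at 2.07 log2 for Fads1 (SE 0.09, limma adjusted p = 5.34e-08), 1.37 for Scd2 (SE 0.18, adjusted p = 0.000106), 0.97 for Elovl6 (SE 0.31, adjusted p = 0.0216) and 0.73 for Elovl5 (SE 0.10, adjusted p = 0.000102). Acaca and Mid1ip1 were each higher by 0.52 (adjusted p = 0.00443 and 0.0439). None of the 9 was called lower, and of all genes 61.1% were called, 31.2% higher and 29.9% lower. The median of the 9 was 0.73, against 0.04 over all genes. With the deposited scaling 3 were called higher and Srebf1 lower (−0.54, adjusted p = 0.00648), where the median of all genes was −0.143. With median-of-ratios scaling 5 were called higher and Srebf1 lower (−0.40, adjusted p = 0.0445). Srebf1 was also called lower by limma on the authors' rlog values (−0.39, adjusted p = 0.0443) and with only the groups compared in the fit (−0.36, adjusted p = 0.02). Mid1ip1 lost its call in 7 and Elovl6 in 4 of the 18 other settings. Among these, the difference of Mid1ip1 was 0.32 without KO control replicate 1, 0.54 without WT control replicate 1 and 0.51 without WT control replicate 2, and that of Elovl6 was 0.86 without KO control replicate 1 and 0.78 without WT control replicate 2.

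In KO cells given Poly(I:C), all tested genes but Srebf1 were below KO control cells. 8 of the 9 fell and 0 rose, where 69.3% of all genes were called, 36.3% lower and 33.1% higher, and the median of the 9 was −1.05, against −0.05 over all genes. The called log2 differences ran from −3.12 for Scd2 to −0.53 for Elovl5, with −0.83 for Acaca (SE 0.12, limma adjusted p = 0.00017). Against KO untreated cells 1 gene rose (Srebf1) and 6 fell (Acaca, Mid1ip1, Scd2, Fads1, Elovl5 and Elovl6), where 71.8% of all genes were called, 35% higher and 36.9% lower. Acaca fell by 0.52 (adjusted p = 0.00325), a call lost with the deposited scaling (−0.34, adjusted p = 0.0566), where the median of all genes was 0.152. Mid1ip1 fell by 0.79 (adjusted p = 0.00474), a call lost without KO Poly(I:C) replicate 2 (−0.57). With scaling by totals alone 0 rose and 7 fell, since Srebf1 was not called and Fasn was, and the median of all genes was −0.773. Each group enters several of these comparisons, so their values share libraries and are not independent of each other.

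Ratios of genes within a library do not depend on how libraries are scaled, and they were formed after the values above had been seen. The ratio of Fasn to Fads1 was 5.19 and 5.0 in KO Poly(I:C), 1.86 and 1.73 in KO control, 10.1 and 6.84 in WT control, 0.564 and 0.423 in KO untreated and 0.592 and 0.543 in WT untreated cells. It was higher in all 6 libraries of the control and Poly(I:C) groups than in all 4 untreated ones, and the untreated groups overlapped. The ratio of Srebf1 to Scd2 was 3.62 and 3.76 in KO Poly(I:C), 0.444 and 0.336 in KO control, 1.18 and 1.4 in WT control, 0.58 and 0.352 in KO untreated and 0.539 and 0.416 in WT untreated cells. It was higher in the KO Poly(I:C) and WT control libraries than in all others. The ratio of Scd2 to Fads1 was 2.51 and 2.46 in KO Poly(I:C), 3.42 and 4.0 in KO control, 6.43 and 5.72 in WT control, 1.23 and 1.32 in KO untreated and 1.18 and 1.94 in WT untreated cells. All of these are levels not corrected for gene length, so only their differences between libraries can be read.

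**Figure D5:**
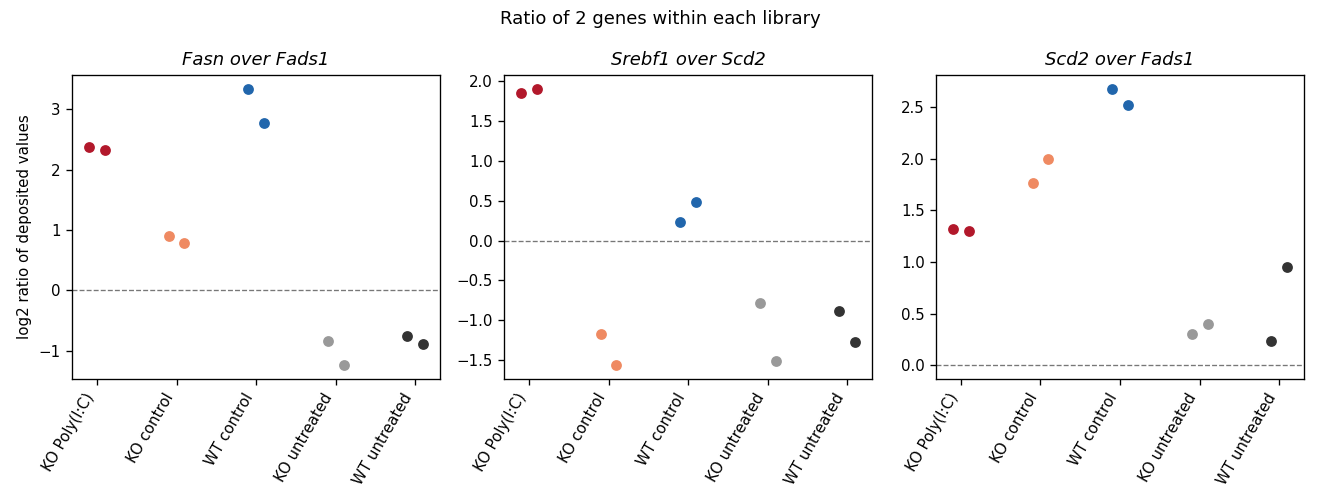
log2 ratio of the deposited values of 2 genes within each library (vertical) in the 5 groups, with 1 point per library and a dashed line at equal deposited values, which are not corrected for gene length. Fasn over Fads1 runs from −1.24 to 3.34, with all 4 untreated libraries below the other 6.

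The genes that act beside the 10 were taken from a list of 40, of which 39 were matched and 33 were tested. They comprise control genes of SREBPs and related factors, genes that supply acetyl-CoA, malonyl-CoA and NADPH, other desaturases, elongases and enzymes of the elongation cycle, and mitochondrial fatty acid synthesis. Between KO untreated and WT untreated cells 0 of 33 were called, against 0.167% of all genes. Hacd4, Mcat, Insig2 and Cyb5r3 had an unadjusted limma p under 0.05 there (0.0145, 0.0295, 0.0336 and 0.0353). The share of all genes called with TMM scaling stands below beside each count. By totals alone the median of all genes itself was −0.523 in WT control against WT untreated cells and 0.503 in KO control against WT control cells. It was −0.755 and −0.773 in KO Poly(I:C) against KO control and KO untreated cells, and 0.516 in the interaction. With the deposited scaling that median was 0.145 in WT control against WT untreated cells. Splits by totals alone or with the deposited scaling, here and in the lists below, therefore cannot be read as particular to these genes. In WT control against WT untreated cells 13 rose and 13 fell (65.9% of all genes), and the split depended on the scaling, with 6 and 20 by totals alone and 15 and 6 with the deposited scaling. In KO control against KO untreated cells 7 rose and 3 fell (19.9% of all genes). In KO Poly(I:C) cells 13 rose and 13 fell against KO control (69.3% of all genes; 3 and 24 by totals alone), and 14 rose and 12 fell against KO untreated cells (71.8% of all genes; 4 and 24 by totals alone). KO control exceeded WT control cells in 8 and was lower in 14 (61.1% of all genes; 20 and 5 by totals alone). The interaction was called positive for 6 and negative for 12 (45.9% of all genes; 18 and 4 by totals alone).

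Of 9 tested control genes 4 rose and 3 fell in WT control against WT untreated cells, and 3 rose and 0 fell in KO control against KO untreated cells. With TMM scaling 65.9% and 19.9% of all genes were called in these comparisons. By totals alone the counts were 3 and 4 in WT and 2 and 0 in KO cells, where the median of all genes was −0.523 and −0.0304. Insig1, which retains SREBPs and is itself an SREBP target, averaged 68.0 ± 3.58 CPM in KO Poly(I:C), 32.2 ± 1.78 in KO control, 68.8 ± 4.44 in WT control, 21.6 ± 1.95 in KO untreated and 22.9 ± 1.67 CPM in WT untreated cells (SD, n = 2). Nr1h3, which encodes the oxysterol receptor LXR alpha that drives Srebf1 transcription, averaged 101 ± 4.92 in KO Poly(I:C), 36.1 ± 2.03 in KO control, 89.2 ± 9.72 in WT control, 22.2 ± 0.878 in KO untreated and 22.8 ± 2.38 CPM in WT untreated cells. Srebf2, which encodes the sterol-directed SREBP, averaged 123 ± 8.5 in KO Poly(I:C), 76.3 ± 5.9 in KO control, 139 ± 1.06 in WT control, 60.2 ± 4.6 in KO untreated and 68.7 ± 3.44 CPM in WT untreated cells. All 3 were highest in WT control and KO Poly(I:C) cells, the groups with the lowest Fads1 and Elovl5. In WT control against WT untreated cells Insig1 rose by 1.59 log2, Nr1h3 by 1.97 and Srebf2 by 1.02 (limma adjusted p = 3.83e-07, 1.28e-07 and 3.98e-06). In KO control against KO untreated cells they rose by 0.58, 0.69 and 0.34 (adjusted p = 0.00336, 0.0017 and 0.022), and the interaction was called negative for all 3, at −1.01, −1.27 and −0.67. The rise of Srebf2 in KO control cells lost its call without KO control replicate 1 (0.26, adjusted p = 0.16), without KO untreated replicate 2 (0.27, adjusted p = 0.151), with only the groups compared in the fit (adjusted p = 0.0629) and with scaling by totals alone (0.30, adjusted p = 0.0536). Under that last scaling its interaction (−0.19, adjusted p = 0.258) was not called either, and its difference between KO Poly(I:C) and KO control cells, 0.69, turned to −0.04. The calls of Insig1 and Nr1h3 held in all 18 other settings. Scap, the SREBP escort, was higher in KO control than in WT control cells by 0.86 (adjusted p = 0.000105), at 35.0 ± 0.38 against 19.3 ± 2.29 CPM.

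Of 6 tested supply genes 3 rose and 2 fell in WT control against WT untreated cells, where 65.9% of all genes were called. By totals alone 1 rose and 3 fell, and with the deposited scaling 3 rose and 1 fell. Acly, which makes cytosolic acetyl-CoA from citrate, averaged 184 ± 15.6 CPM in KO Poly(I:C), 188 ± 4.24 in KO control, 221 ± 5.23 in WT control, 150 ± 5.34 in KO untreated and 157 ± 3.9 CPM in WT untreated cells. It rose by 0.49 log2 in WT control against WT untreated cells (limma adjusted p = 0.000215), which turned to −0.04 with scaling by totals alone (adjusted p = 0.661), and by 0.33 in KO control against KO untreated cells (adjusted p = 0.0134). The call in KO cells was lost without KO control replicate 1 (0.35), KO control replicate 2 (0.30) or KO untreated replicate 1 (0.29). Me1, the malic enzyme that yields NADPH, rose by 1.59 in WT control (adjusted p = 6.68e-06) and by 1.00 in KO control cells (adjusted p = 0.00159), each against untreated cells. Mlycd, whose product breaks down malonyl-CoA, fell by 0.94 in WT control against WT untreated cells (adjusted p = 0.0018) and by 0.96 in KO Poly(I:C) against KO control cells (adjusted p = 0.00147).

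Of 13 tested genes of the elongation list 5 rose and 7 fell in WT control against WT untreated cells, where 65.9% of all genes were called. By totals alone 2 rose and 9 fell, and with the deposited scaling 5 rose and 3 fell. Of the genes that fell, Fads3 lost its call in 12, Hacd1 in 11 and Hacd2 in 5 of the 18 other settings, and these genes were singled out after their values were seen. Elovl1, which lengthens saturated and monounsaturated very long chains, averaged 100 ± 4.57 CPM in KO Poly(I:C), 109 ± 2.07 in KO control, 115 ± 6.09 in WT control, 78.4 ± 3.37 in KO untreated and 76.7 ± 0.0268 CPM in WT untreated cells. It rose in 2 comparisons in which Elovl5 and Elovl6 fell, by 0.59 log2 in WT control against WT untreated cells (limma adjusted p = 4.75e-05) and by 0.36 in KO Poly(I:C) against KO untreated cells (adjusted p = 0.00118). With scaling by totals alone these differences were 0.06 (adjusted p = 0.477) and −0.42 (adjusted p = 0.000362). In KO control against KO untreated cells Elovl1 rose too, by 0.47 (limma adjusted p = 0.00179), where Elovl5 fell and Elovl6 was not called. Elovl7, at low levels, fell by 2.54 in WT control against WT untreated cells (adjusted p = 4.03e-05) and by 2.10 in KO Poly(I:C) against KO control cells (adjusted p = 0.000136). Elovl2 was at low levels, with 1.29 ± 0.0012 CPM in KO Poly(I:C), 0.132 ± 0.14 in KO control, 0.589 ± 0.00499 in WT control, 0.0975 ± 0.0455 in KO untreated and 0.0165 ± 0.0233 CPM in WT untreated cells. Hacd4, of the dehydratase family of the elongation cycle, averaged 152 ± 2.23 CPM in KO control and 55.2 ± 1.03 CPM in WT control cells, a log2 difference of 1.46 (adjusted p = 1.27e-07). In the mitochondrial list 5 genes were tested. Mecr, the enoyl reductase of that route, rose by 0.91 in WT control against WT untreated cells (adjusted p = 0.000309; 0.38 and adjusted p = 0.054 by totals alone). Cbr4 fell by 0.27 (adjusted p = 0.0487), a call lost in 16 of the 18 other settings, and 3 did not pass.

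The members did not share a single pattern. Over the 10 libraries the centred log2 profiles of Fads1 and Elovl6 differed by a root mean square of 0.497, those of Srebf1 and Fasn by 0.441, and those of Srebf1 and Fads1 by 1.69, the largest distance of the 36 pairs. Among all tested genes, the profile closest to Fads1 was that of Fam234b (0.122), closest to Srebf1 that of Ddx54 (0.0864), and closest to Elovl5 that of Dguok (0.0831). The closest to Acaca was Gtf2h2 (0.0706), to Mid1ip1 Zbtb22 (0.104), and to Elovl6 Bace1 (0.238). The closest to Scd2, Acad12, differed by 0.339, that to Fads2, Cacna1g, by 0.267 and that to Fasn, Trmt61a, by 0.22, where the root mean square of the gene's own profile was 1.07 for Scd2, 0.644 for Fads2 and 0.581 for Fasn. These distances describe 10 libraries in 5 groups, and low genes carry more counting noise in them.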

How the data were processed

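The authors deposited 2 tables by Ensembl identifier, 1 of whole numbers and 1 of rlog values (log2 scale). DESeq2, RSEM 1.2.12, STAR 2.4.0d and Trim Galore 0.2.8 are named, without roles, in the processing notes of the submitters. The build the authors used was not given in the sources used here; these whole numbers, as deposited, are treated as a signal, because in each library they lie on a grid, as reads multiplied by 1 factor (0.687 to 1.9025) and rounded would, so they carry no simple counting error. Reads were estimated by dividing by the factor. Of 45318 rows, 44585 had a symbol in GENCODE M21, and the rest held at most 0.125% of a library. No column lacked a sample.

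Values were scaled with trimmed means of M values (TMM; 30% of M and 5% of A values trimmed) to CPM. Genes with a value of 10 or more in at least 2 libraries were kept (13171 of 20687 above 0), and limma 3.58.1 in R 4.3.3 was fitted with a trend to log2(CPM + 0.1), with 1 coefficient per group over all 10 libraries (5 residual and 4.81 prior degrees of freedom). This scale understates the change of low genes. There were 7 comparisons, and calls were made at a Benjamini-Hochberg adjusted p under 0.05 over all genes. A count model was planned for raw counts and was not used, because the unit was another. The fit was tested on simulated data. Same-numbered libraries deviated together with correlations of 0.013 to 0.315 over 10 pairs of groups, of which 6 were above 0.1. Groups of the same label had the highest: 0.315 (WT untreated and WT control), 0.306 (KO untreated and KO control), 0.215 (KO untreated and KO Poly(I:C)) and 0.172 (KO control and KO Poly(I:C)). Replicate numbers were not treated as pairs in the main fit, so its comparisons within a label ignore any such pairing. A block within each label was not fitted.

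The 10 genes, the lists and the tests were chosen with earlier results of these data known. All 10 genes are named whatever their values. From each list the genes with the largest called difference in each direction of a comparison may be named, plus Insig1, Nr1h3, Srebf2, Acly and Elovl1. Promoter sequences are from RefSeq on GRCm38.p6, and coordinates of genes are from GENCODE M21 on GRCm38, which may not be the authors' build. Hsd17b8 was not matched.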

Additional observations from a re-analysis of the deposited data

Results flagged for a closer look

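The response to the control medium (control minus untreated) differed between KO and WT cells by the interaction test of limma for 5 of the 9 tested genes, where 45.9% of all genes were called. This count lies near the share of all genes and does not by itself set the 9 apart. The difference of the responses, KO minus WT, was 2.03 log2 for Fads1 (95% interval 1.74 to 2.33), 1.58 for Scd2, 1.33 for Elovl6, 0.71 for Acaca and 0.67 for Elovl5. Elovl6 lost this call in 9 of the 18 other settings, and Acaca lost it with the deposited scaling. For Scd2 the groups moved in opposite directions, by 0.85 in KO cells and −0.74 in WT cells, and both KO control libraries (112.0 and 125.0 CPM) lay above both KO untreated ones (60.3 and 71.5 CPM), while both WT control libraries (47.1 and 44.3 CPM) lay below both WT untreated ones (60.2 and 96.1 CPM). For Acaca the response was 0.31 in KO cells, not called, and −0.40 in WT cells. Fads1, Elovl5 and Elovl6 had a response below 0 in both, of smaller size in KO cells. No cause of these differences was tested.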

How the results depend on the processing

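Each of 63 differences (9 genes in 7 comparisons) was recomputed in 18 other settings, 10 of which left out a library. Of 40 called differences, 25 kept their call and sign in every setting and 15 lost the call in at least 1, of which 1 also changed sign. Of 23 that were not called, 7 gained a call in at least 1 setting and 14 changed sign. With scaling by library totals alone the median of all genes was −0.523 (WT control against untreated) and −0.755 and −0.773 (KO Poly(I:C) against KO control and KO untreated). It was 0.503 in KO control against WT control and 0.516 in the interaction. Under that scaling Srebf1 turned to 0.12 in KO control against WT control and to 0.41 in the interaction. In KO Poly(I:C) against KO control and KO untreated cells Srebf1 turned to −0.61 and −0.03. Fasn turned to 0.36 in KO control against WT control and −0.64 in KO Poly(I:C) against KO untreated cells, and Fads2 to −0.21 in WT control against untreated cells. With the deposited scaling the interaction count was 3 in place of 5, and the Fasn interaction was −0.11, where the median of all genes was −0.121. The cause was not tested.

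Leaving out 1 library changed the number of calls among the 9 genes in every comparison but that of untreated cells. In every comparison it could also lower the number of calls among all genes. The lone library left in a group is assumed to vary like the others. Differences that were not called then changed sign within these ranges: between KO and WT untreated cells −0.84 to 0.01 for Fads2, −0.03 to 0.15 for Elovl5, −0.55 to 0.12 for Scd2, −0.44 to 0.07 for Mid1ip1 and −0.04 to 0.11 for Fads1; −0.36 to 0.12 for Fasn between KO and WT control; −0.23 to 0.62 for Fads2 in WT control and −0.15 to 0.35 for Mid1ip1 in KO control, each against untreated; −0.50 to 0.28 for Fads2 between KO Poly(I:C) and untreated; and −0.32 to 0.16 for Srebf1 and −0.19 to 0.30 for Fasn in the interaction.

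With a replicate block the interaction was called for 7 genes in place of 5, adding Mid1ip1 (adjusted p = 0.027) and Fads2 (adjusted p = 0.0492), and the other 6 counts did not change. The labels do not say that a number pairs libraries. The planned edgeR fit was not run, since the deposited values are not counts. Scd1 could not be tested at this depth, and Fads2 and Elovl6 rest on few reads.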
